A study of Mus musculus with 6 samples.

Results

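The genes described here encode 44 assembly factors of the large ribosomal subunit, proteins that build the subunit in the nucleolus and leave it before it takes part in translation. They are a list of names drawn up with earlier results of these data known, so their common direction is a description and not independent evidence, and all 44 were found by symbol among the 55416 genes of the count tables. RNA was sequenced from the CD3+ fraction of spleen (CD3 is part of the T cell receptor complex) in wild-type C57BL/6 recipients of either an isograft, from a genetically identical donor, or an allograft, from a genetically different donor. There were 3 libraries per group, and cells of both groups were kept in culture medium with serum before RNA was taken. The sources used here do not give the grafted organ, the donor strain, the age of the mice, the time after grafting or the time in culture. Nothing in the labels states that each library is a different mouse, and p-values therefore reflect only library-to-library spread, which may be technical.

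A large subunit precursor starts as a long rRNA transcript that folds and is cut while assembly factors bind and leave in order. Early factors and RNA helicases shape the rRNA in the nucleolus, GTPases and large ATPases drive the steps that cannot be undone, and late factors carry the particle through the nuclear pore and are removed in the cytoplasm. Resting lymphocytes make few ribosomes, and stimulation of the T cell receptor is known to raise ribosome production ahead of cell growth.

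All 44 genes were higher in the allograft libraries. By edgeR's quasi-likelihood test with Benjamini-Hochberg adjustment over 14926 genes, 44 of 44 rose, where 28.7% of all genes tested rose. The median gene of the 44 was 2.77-fold higher, a log2 fold change of 1.47 (allograft minus isograft), against -0.01 for all genes tested. Single genes ran from 1.39-fold for the RNA helicase gene Ddx24 to 7.21-fold for Rrp1b. By the same test 0 of 44 fell, against 29.1% of all genes, and 0 also fell at an unadjusted p under 0.05 or by DESeq2 or limma-voom. At least 2-fold rises came to 32 of 44, where 10.1% of all genes reached that size. Every allograft library stood above every isograft library for all 44, against 31.3% of all genes. With total counts in place of TMM scaling (trimmed mean of M values) 19.9% of all genes rose and 40.8% fell, the median of all genes was -0.24, and the 44 genes still all rose with a median of 1.25.

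The rise was also visible as a share of the sequenced RNA. Together the 44 genes took 0.88, 0.849 and 0.89% of all counts in the isograft libraries, given here and below in the order of replicates 1, 2 and 3, and 1.85, 1.91 and 1.81% in the allograft libraries. The groups did not overlap, and the mean share went from 0.873 ± 0.0215% to 1.86 ± 0.0515% (SD, n = 3). Npm1 alone made up 0.198 to 0.23% of all counts in isograft libraries and 0.355 to 0.37% in allograft libraries, and without it the share of the other genes still went from 0.655 ± 0.00843% to 1.49 ± 0.0437%.

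**Figure D1:**
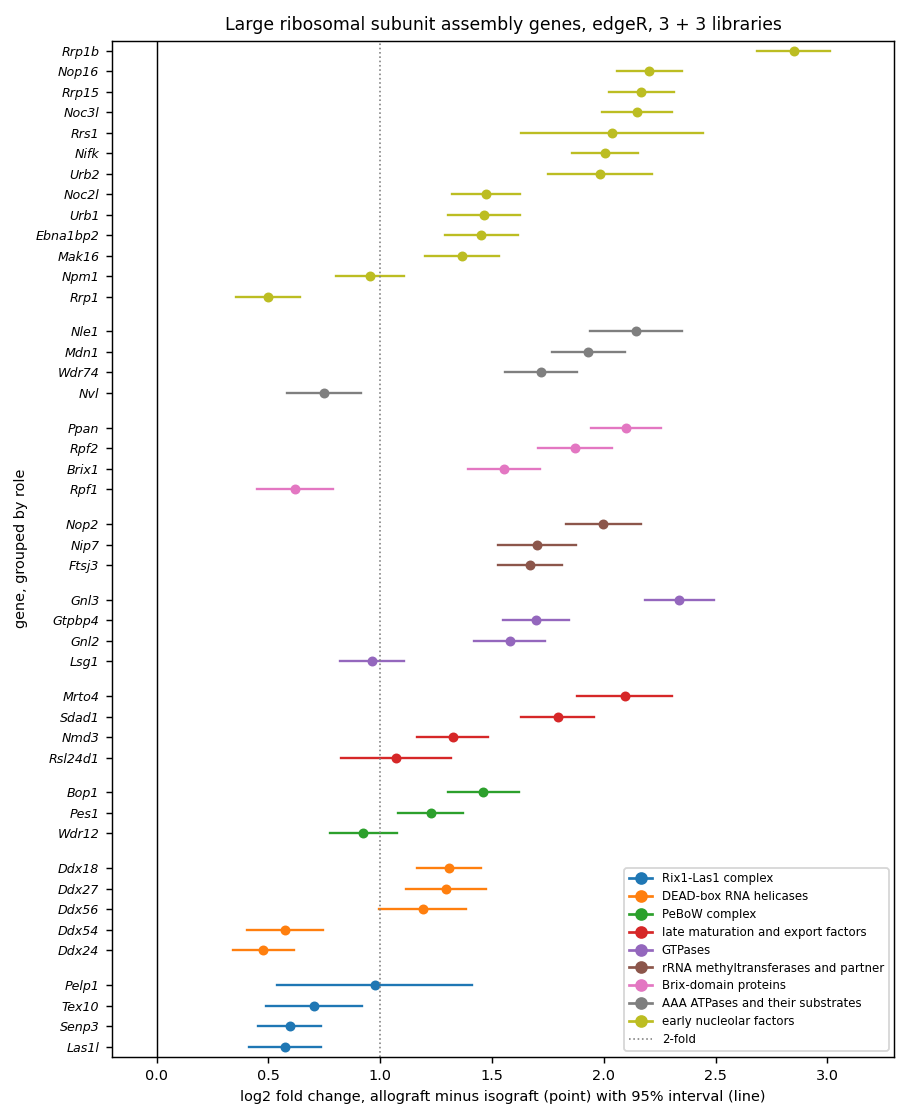
Log2 fold change of each of the 44 genes (point) with its 95% interval (line), allograft minus isograft, grouped by role, from edgeR on 3 libraries per group. All intervals lie to the right of 0; Rrp1b stands farthest out at 2.85, and the 4 genes of the Rix1-Las1 complex all have points left of the dotted 2-fold line.

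Promoters are shown as a description only. The motif searched was CACGTG, the E-box bound by MYC and related factors, which reads the same on both strands. RefSeq start sites (build GRCm38.p6) were matched by symbol for 38 of the 44 genes. In the 250 bases before the start, 4 of the 38 (10.5%) held the motif, against 6.86% of 27025 genes with a promoter in the same table. They were Nmd3, Nop2, Pelp1 and Rpf2. For Rpf2, 57 of the 61 bases around the motif lie in an annotated exon of Rpf2 itself. That match may therefore not lie before the start of transcription, and its sequence is not shown. Around the motif, in capitals, 3 of them read as follows, each 5′ to 3′ on the strand of its gene.
Nmd3 (chr3:69721906-69721981, plus strand): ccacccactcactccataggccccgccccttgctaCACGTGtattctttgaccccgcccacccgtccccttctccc
Nop2 (chr6:125131788-125131863, plus strand): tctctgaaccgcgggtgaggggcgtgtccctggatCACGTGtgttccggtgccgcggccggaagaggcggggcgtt
Pelp1 (chr11:70410220-70410281, minus strand): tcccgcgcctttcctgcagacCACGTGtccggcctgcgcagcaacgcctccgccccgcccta
The motif began 114, 60 and 229 bases before the start of Nmd3, Nop2 and Pelp1. These genes rose by 1.32, 1.998 and 0.98 on the log2 scale. Rrp1b and Gnl3, with the largest rises, were not among the 4 genes with the motif. Either may be among the genes without a matched start site, which were not searched. Any relation of the motif to the rises was not tested. A match is a run of letters and not a measured binding site.

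Library totals were 30066137 to 37821738 counts, and the lowest count of any of the 44 genes in any library was 267, so all 44 passed the filter on low counts in both groups. Levels are given as CPM (TMM-scaled read counts relative to library size). Markers of T cells summed to 1847 to 1965 CPM in isograft and 1310 to 1446 CPM in allograft libraries, with 3 of 12 risen and 7 fallen. Cd3e was among those that fell, from a mean of 123 to 79.1 CPM. The 3 that rose were Trac (from 50.9 to 83.7 CPM), Cd5 (from 30.8 to 80.4 CPM) and Cd8a (from 68.3 to 81.8 CPM). B cell markers were present throughout. Their sum was 1258 to 1369 CPM in isograft and 1506 to 1668 CPM in allograft libraries, with 3 of 8 risen and 4 fallen, and Fcer2a went from 52.8 to 378 CPM. NK cell markers summed to 30.4 to 34.2 CPM in isograft and 53.4 to 60.7 CPM in allograft libraries, with 1 of 4 risen (Eomes, from 13.2 to 36.8 CPM). The other NK cell markers did not pass the threshold. Their isograft and allograft means were 2.79 and 4.0 CPM for Ncr1, 15.1 and 16.7 CPM for Klrk1, and 1.12 and 0.633 CPM for Klrb1c. Plasma cell markers went from sums of 39.7 to 41.8 CPM down to 24.7 to 26.8 CPM, with 1 of 3 tested fallen, and macrophage and monocyte markers from 95.2 to 100.4 CPM down to 75.7 to 85.7 CPM, with 1 of 6 risen and 3 fallen. The sums of the T cell, B cell, NK cell, plasma cell, and macrophage and monocyte lists did not overlap between the groups. Most of the change in the B cell, NK cell and plasma cell sums came from Fcer2a, Eomes and Sdc1 (from 17.7 to 6.16 CPM), respectively. Such separation was common: of 14926 genes tested, 4667 had all allograft libraries above all isograft libraries, and 4787 had them below. Neutrophil markers summed to 1.35 to 2.62 CPM and erythroid markers to 0.592 to 1.35 CPM over the 6 libraries. The part of these other cells in the values below was not tested, and a change in cell number cannot be told apart from a change in RNA per cell. The values are also relative, so a change in total RNA per cell would not show.

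Early nucleolar factors join the precursor in its first stages, and 13 of 13 rose, with a median log2 fold change of 1.98. Rrp1b (chromosome 17, 32255074 to 32281839, GRCm39), a nucleolar protein of the Rrp1 family, stood at 38.8, 40.2 and 43.4 CPM in the isograft libraries and at 303.5, 302.5 and 276 CPM in the allograft libraries. The groups stood far apart, the log2 fold change was 2.85 ± 0.08 (SE), and edgeR's adjusted p was 6.4e-16. Its relative Rrp1 (chromosome 10, 78236218 to 78248877) had the smallest rise of this group, from 639, 652 and 686 CPM to 974, 927 and 891 CPM, a log2 fold change of 0.50 ± 0.07 (edgeR adjusted p = 3.6e-06). Corrected for exon length, Rrp1b was 0.0263 to 0.0274 of the level of Rrp1 in isograft libraries and 0.134 to 0.141 of it in allograft libraries. Rrp1 remained the more abundant of the pair in all 6 libraries.

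Nop16, Rrp15 and Noc3l followed Rrp1b within the early factors. Nop16, a nucleolar protein of the early precursor, went from 76.9 ± 1.49 to 355 ± 13.2 CPM (SD, n = 3), and Rrp15, which is needed for rRNA cleavage, from 73.97 ± 2.26 to 333 ± 3.73. Noc3l rose by 2.15 ± 0.08 on the log2 scale and its partner in nucleolar complexes, Noc2l, by 1.47 ± 0.07. Nifk, which binds the proliferation marker protein Ki-67, rose by 2.01 ± 0.07. Urb1 and Urb2, scaffold proteins of the earliest particles, rose by 1.46 ± 0.08 and 1.98 ± 0.11 from low levels of 30.6 and 17.3 CPM. Ebna1bp2 and Mak16, both early precursor proteins, rose by 1.45 ± 0.08 and 1.36 ± 0.08.

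Rrs1 and Rpf2 act together to bring a small rRNA, with its ribosomal proteins, into the precursor. Rrs1 was 59.4, 69.9 and 83.9 CPM in the isograft libraries and 354, 270.0 and 249 CPM in the allograft libraries. The groups stood apart, but Rrs1 had the largest spread of the 44 genes in isograft libraries (a coefficient of variation of 17.3%, against a median of 5.08%). The rise was 2.04 ± 0.17 (edgeR adjusted p = 2.6e-05). Rpf2 was even across libraries, at 20.6 to 21.7 CPM and then 76.0 to 78.1 CPM, a rise of 1.87 ± 0.08. Per length, Rpf2 was 0.261 to 0.389 of the level of Rrs1 in isograft and 0.232 to 0.334 of it in allograft libraries, and these ranges overlap.

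Npm1 (chromosome 11, 33102287 to 33113206), the abundant nucleolar chaperone nucleophosmin, had the highest level of the 44 genes in both groups. It was 2093, 1847 and 2113 CPM in the isograft libraries and 3947, 3995 and 3791 CPM in the allograft libraries, a log2 fold change of 0.96 ± 0.07. The allograft values cluster closely and lie well above the isograft ones. Of the 50-base words in the longest Npm1 transcript, 40.9% also occur in transcripts of 11 other genes, so its count is uncertain.

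**Figure D2:**
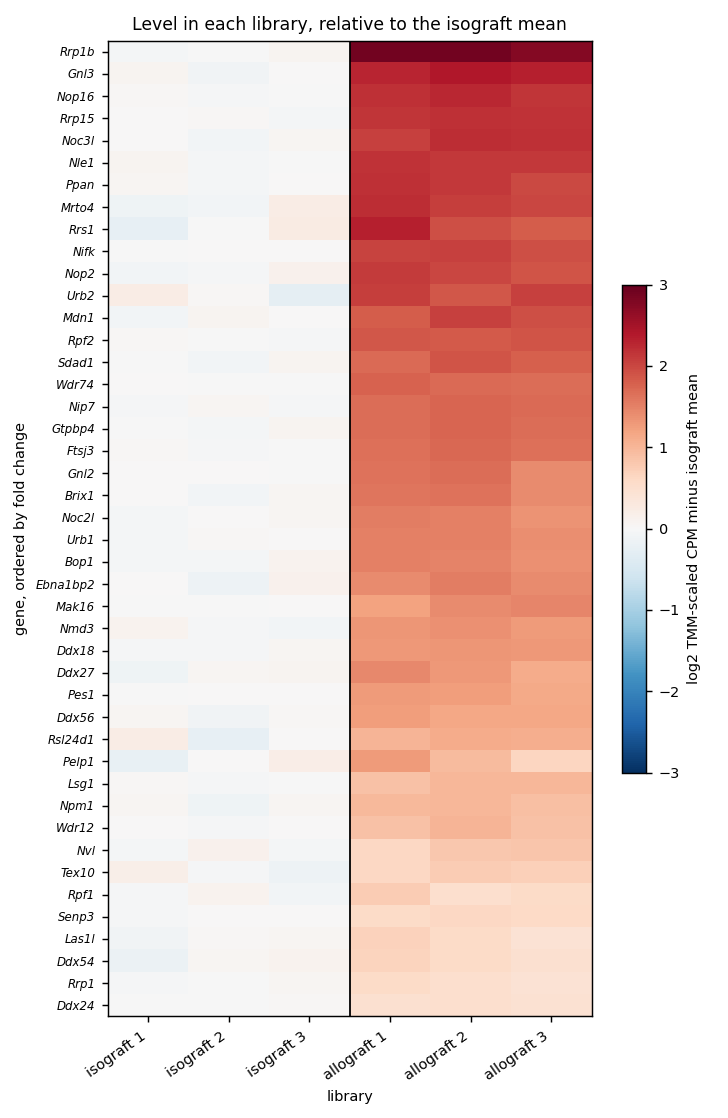
Level of each of the 44 genes (rows, ordered by fold change) in each of the 6 libraries (columns), as log2 TMM-scaled CPM minus the mean of the 3 isograft libraries. Isograft columns are near 0 and every allograft cell is above it; allograft replicate 3 is the palest of the allograft columns in many rows.

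The proteins Brix1, Rpf1, Rpf2 and Ppan share the RNA-binding Brix domain, and 4 of 4 rose. Ppan (chromosome 9, 20799471 to 20803474) was 79.97, 74.7 and 77.5 CPM in the isograft libraries and 351, 337 and 307 CPM in the allograft libraries, a log2 fold change of 2.10 ± 0.07. Rpf1 had the smallest rise of the family, from 103.6, 114 and 99.97 CPM to 180.2, 150.3 and 157 CPM, which is 0.62 ± 0.08 (edgeR adjusted p = 1.7e-06). The intervals of these relatives were apart, 1.94 to 2.26 for Ppan and 0.45 to 0.79 for Rpf1. Brix1 lay between them at 1.55 ± 0.08.

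Pes1, Bop1 and Wdr12 form the PeBoW complex, which is needed to mature the large subunit rRNAs, and 3 of 3 rose. Bop1 rose most, from 73.7, 74.3 and 83.0 CPM to 219, 217 and 199.8 CPM, a log2 fold change of 1.46 ± 0.08. Wdr12 rose least, from 73.5, 71.1 and 73.6 CPM to 133, 147 and 134 CPM, or 0.92 ± 0.07. Pes1 went from 217 ± 0.798 to 508 ± 27.6 CPM (SD, n = 3). Genes of this one complex did not rise in step: per length, Bop1 was 0.348 to 0.389 of Pes1 in isograft and 0.425 to 0.429 of it in allograft libraries, while Wdr12 went the other way, from 0.0826 to 0.0859 of Pes1 down to 0.064 to 0.0713. Pes1 shares 24.1% of its 50-base words with other transcripts, so these ratios are uncertain in level.

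DEAD-box helicases unwind rRNA duplexes in the precursor, and 5 of 5 rose. Ddx18 (chromosome 1, 121481564 to 121495718) was 89.4, 88.96 and 94.6 CPM in the isograft libraries and 225, 226 and 225 CPM in the allograft libraries, the tightest allograft values of the 44 genes. Its log2 fold change was 1.31 ± 0.07, though 62.7% of its 50-base words occur in other transcripts. Ddx24 (chromosome 12, 103374241 to 103392089) had the smallest rise of all 44 genes, from 498, 496 and 516 CPM to 697, 709.6 and 695 CPM, or 0.48 ± 0.07 (edgeR adjusted p = 3.5e-06). Small as it was, this rise was larger than the spread within either group. Ddx27 and Ddx56 rose by 1.29 ± 0.09 and 1.19 ± 0.09, and Ddx54 by 0.57 ± 0.08. For Ddx54, 15.5% of its exonic bases overlap exons of genes on the opposite strand, and the counting command set no strand option.

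GTPases act as checkpoints of assembly, and 4 of 4 rose. Gnl3 (chromosome 14, 30734390 to 30741109), the gene of nucleostemin, which marks proliferating and stem cells, was 102, 90.1 and 97.9 CPM in the isograft libraries and 472, 511 and 485 CPM in the allograft libraries. That is a log2 fold change of 2.34 ± 0.07, the second largest of the 44 genes. Lsg1, the cytoplasmic GTPase that frees the export adaptor Nmd3, had the smallest rise of this group, from 128, 123 and 125 CPM to 232, 250.3 and 251 CPM, or 0.96 ± 0.07. The nucleolar GTPases Gnl2 and Gtpbp4 lay between them at 1.58 ± 0.08 and 1.70 ± 0.07. Per length, Gnl3 was 0.336 to 0.38 of Gnl2 in isograft and 0.572 to 0.676 of it in allograft libraries.

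Mdn1 and Nvl are AAA ATPases that pull assembly factors off the particle, Nle1 being a substrate of Mdn1 and Wdr74 a partner of Nvl, and 4 of 4 rose. Mdn1 (chromosome 4, 32657119 to 32775217), the gene of the very large protein midasin, went from 667 ± 38.6 to 2543 ± 194 CPM (SD, n = 3), which is 1.93 ± 0.08 on the log2 scale. Nle1 rose most of the 4, from 8.89, 8.09 and 8.33 CPM to 38.2, 36.8 and 36.8 CPM, or 2.14 ± 0.10. Nvl rose least, from 81.7, 92.9 and 82.3 CPM to 131, 149 and 151 CPM, or 0.75 ± 0.08. The 2 ATPases thus differed in size of change, with intervals of 1.77 to 2.09 for Mdn1 and 0.58 to 0.91 for Nvl. Wdr74 rose by 1.72 ± 0.08.

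In the Rix1-Las1 complex, which cuts an internal spacer of the precursor rRNA and holds the particle for Mdn1, 4 of 4 rose and 0 of 4 reached 2-fold. Pelp1 (chromosome 11, 70283709 to 70300857), a scaffold of the complex, was 61.7, 72.8 and 82.9 CPM in the isograft libraries and 176, 139.5 and 112 CPM in the allograft libraries. The groups did not overlap, but the allograft libraries spread widely (a coefficient of variation of 22.4%, against a median of 5.0% for the 44 genes). Its log2 fold change was 0.98 ± 0.18, with the largest adjusted p of the 44 genes (edgeR adjusted p = 0.0031), and leaving out single libraries gave 0.79 to 1.11. Las1l, the endonuclease, had the smallest rise, from 279.7, 310.0 and 314 CPM to 487, 451 and 408 CPM, or 0.58 ± 0.08. Tex10 and the SUMO protease gene Senp3 rose by 0.70 ± 0.10 and 0.59 ± 0.07. The median of the complex was 0.65, against 1.47 for all 44 genes, and this difference was not tested.

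Nop2 and Ftsj3 are rRNA methyltransferases and Nip7 is a partner of Ftsj3, and 3 of 3 rose. Nop2 (chromosome 6, 125108872 to 125121716), a cytosine methyltransferase once described as a proliferation antigen, was 100.4, 103.5 and 117 CPM in the isograft libraries and 459, 428 and 395 CPM in the allograft libraries, a log2 fold change of 1.998 ± 0.08. Ftsj3, also a methyltransferase, had the smallest rise, from 428, 409 and 415 CPM to 1313, 1366 and 1308 CPM, or 1.67 ± 0.07. Nip7 rose by 1.70 ± 0.08 from 18.2 CPM. The 95% interval of Nop2 (1.83 to 2.17) lay above that of Ftsj3 (1.53 to 1.81), and that of Nip7 (1.53 to 1.87) overlapped both.

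Late factors leave the precursor in the nucleus or cytoplasm, and 4 of 4 rose at least 2-fold. Mrto4 (chromosome 4, 139074746 to 139079887) holds the place of the ribosomal stalk protein Rplp0 until the last steps. It was 14.9, 15.4 and 19.1 CPM in the isograft libraries and 76.4, 68.7 and 65.4 CPM in the allograft libraries, a log2 fold change of 2.09 ± 0.10. Rplp0 itself stood at 591 ± 61.4 and 586 ± 11.9 CPM (SD, n = 3) with a log2 fold change of -0.01 and an interval of -0.17 to 0.15, and it passed as a fall with total counts (-0.23, edgeR adjusted p = 0.014). Of the 50-base words of Rplp0 41.8% occur in other transcripts, and of those of Mrto4 25.8%, so both counts are uncertain. Rsl24d1, a relative of the ribosomal protein Rpl24 that occupies its site on the precursor, had the smallest rise of the late group, from 13.2, 9.59 and 11.4 CPM to 23.0, 24.4 and 24.2 CPM, or 1.07 ± 0.12. Rpl24 was counted at only 0.996 and 1.35 CPM in the 2 groups, and 81.7% of its 50-base words occur in other transcripts. Per length, Rsl24d1 was 4.77 to 8.46 times Rpl24 in isograft and 7.57 to 18.4 times it in allograft libraries, ranges that overlap and rest on an uncertain count. Nmd3, the adaptor that links the particle to the export receptor, rose by 1.32 ± 0.08, and Sdad1, a factor of nuclear maturation, by 1.79 ± 0.08.

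**Figure D3:**
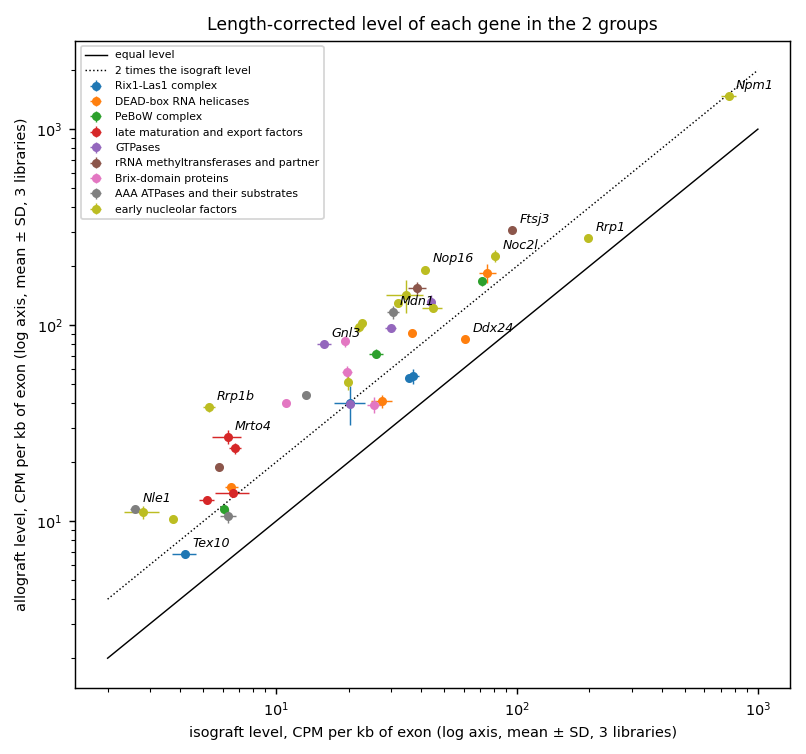
Mean level of each of the 44 genes in CPM per kb of exon, isograft on the horizontal and allograft on the vertical axis (both log axes), with bars of 1 SD over 3 libraries. Every point lies above the line of equal level; Npm1 is the most abundant gene in both groups, and Rrp1b lies farthest above the dotted line of 2 times the isograft level.

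Levels can be compared between genes only per length, here CPM per kb of all annotated exons, a length that rarely used long exons inflate. On that scale the median of the 44 genes was 22.5 in isograft and 56.5 in allograft libraries. Npm1 was highest at 757 and 1468 CPM per kb. Nle1 was lowest in isograft libraries at 2.61, and Tex10 lowest in allograft libraries at 6.81. The order of the genes was largely kept, with a Spearman rho of 0.913 between the group means across the 44 genes, which share their libraries and lengths.

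Of the 44 genes, 10 rose at least 4-fold, 22 from 2-fold to under 4-fold, and 12 by less than 2-fold. The 95% interval lay wholly above 2-fold for 30 genes and wholly below it for 8 genes, so the sizes of the rises differed among the genes by more than their errors. Within groups the libraries were close, with a median coefficient of variation of 5.08% in isograft and 5.0% in allograft libraries. Allograft replicate 3 ran lowest: 10 of the 44 genes were above their allograft mean there, against 25 and 34 in allograft replicates 1 and 2, and the median deviation was -0.04 on the log2 scale. Sequence shared with other genes touched 10 of the 44 genes at over 10% of exonic bases or of 50-base words: Ddx18, Ddx54, Mak16, Mrto4, Noc2l, Npm1, Nvl, Pes1, Rsl24d1 and Senp3. The other 34 genes all rose, with a median log2 fold change of 1.68, and the median of the 10 was 1.15.

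Other genes of ribosome production were listed apart from the 44. Of 32 further large subunit maturation factors tested, 29 rose and 1 fell, and the median was 1.05 on the log2 scale. Ccdc86 rose by 1.86 ± 0.10 and Pa2g4, a relative of a yeast export factor, by 1.85 ± 0.08. The member that fell was Nop53, which brings the RNA exosome to the precursor, at 1396, 1773 and 1704 CPM in the isograft and 1381, 1059 and 1088 CPM in the allograft libraries. Its log2 fold change was -0.47 ± 0.11 (edgeR adjusted p = 0.0022), and allograft replicate 1 lay just under the lowest isograft library. With total counts 27 of the 32 rose and 2 fell, Zfp622 being the other, and the median was 0.83. The small subunit processome and assembly list, the sister pathway, had 45 of 46 members that rose and a median of 1.46. With total counts 43 members of this list rose and 0 fell, and its median was 1.24. Bysl (2.40 ± 0.21) and Rrp12 (2.28 ± 0.08) had its largest rises, and Ddx47 its smallest among those that passed (0.17 ± 0.07), which total counts ended (adjusted p = 0.57). In the RNA polymerase I list, the machinery that transcribes the rRNA genes, 9 of 12 rose with a median of 0.72, led by the subunit genes Polr1b (2.40 ± 0.08) and Polr1a (1.73 ± 0.08). Polr1d had the smallest rise that passed (0.60 ± 0.17), and total counts ended it (adjusted p = 0.084). With total counts 8 of the 12 rose and 2 fell (Taf1b and Ttf1), with a median of 0.49.

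Ribosomal protein genes of the large subunit, whose products the assembly factors put in place, showed small differences. With TMM scaling 19 of 47 rose and 3 fell (median 0.16 on the log2 scale), and with total counts 6 rose and 11 fell, with a median of -0.06, so no direction can be given for that list. Rpl13a (0.89 ± 0.10) and Rpl15 (0.53 ± 0.07) had the largest rises, which also passed with total counts. Rpl13a was counted at only 15.0 CPM in isograft and 27.8 CPM in allograft libraries. Rpl13 fell by 0.42 on the log2 scale, from 874, 691 and 927 CPM to 566, 584 and 711 CPM, and the groups overlapped. The largest log2 fold change of the 47 was 0.89, and 36 of the 44 assembly genes lay above it. Many ribosomal protein genes have processed pseudogenes, and the counting command set no option for reads that map to several places, so their levels are uncertain.

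**Figure D4:**
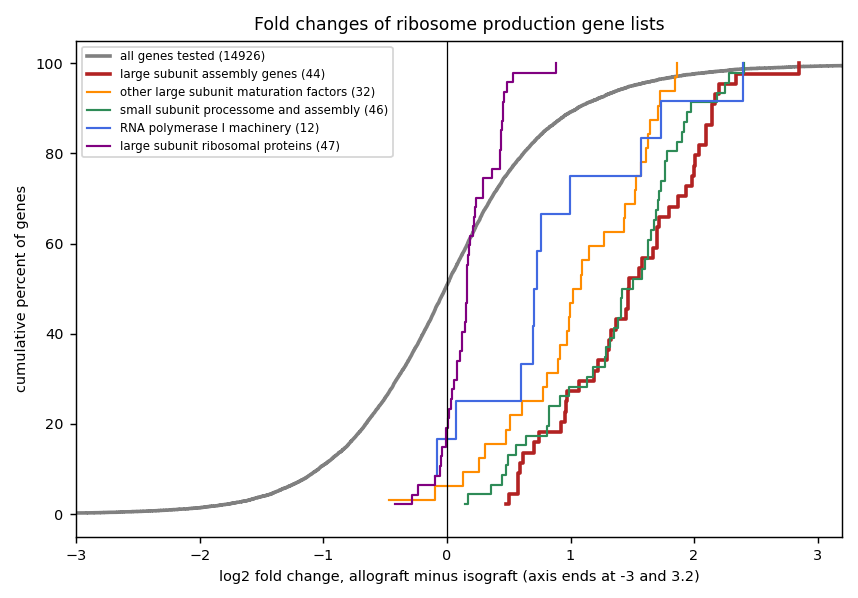
Cumulative percent of genes (vertical) at or below each log2 fold change, allograft minus isograft (horizontal), for all 14926 genes tested and for 5 lists, with the number of genes tested in brackets. The curve of the 44 large subunit assembly genes lies close to that of the small subunit list (medians 1.47 and 1.46), and the curve of the ribosomal protein genes rises near 0 (median 0.16).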

How the data were processed

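RNA was sequenced from 3 isograft and 3 allograft libraries made with a SMARTER mRNA kit, per the labels. The deposited values are whole-number read counts per gene, which the authors made with featureCounts 1.6.0 over exons of Ensembl release 104 (GRCm39) in paired mode with no strand option, per the file headers. GRCm38 and mm10 stand in the submitters' processing notes, and coordinates of genes are those of the count tables. Of 55416 genes, 52083 received a symbol through their Ensembl ID. The 44 genes and the other lists were chosen with earlier results of these data known. Listed symbols that matched no gene were left out (3 large subunit factors, 1 small subunit factor and 3 of the polymerase list).

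Counts were filtered with filterByExpr, which kept 14926 genes holding 99.92% of all counts, and scaled by TMM. They were tested with edgeR 4.0.16 (robust quasi-likelihood test, group as the only term, R 4.3.3) with Benjamini-Hochberg adjustment over all genes tested and a threshold of 0.05. The script was tested on simulated counts. Intervals are 95% intervals of the log2 fold change. In each role group the genes with the largest and smallest change were given per library. In each further list the 2 largest rises and the smallest log2 fold change among genes past the threshold were named, with Rplp0 and Rpl24 as relatives of Mrto4 and Rsl24d1. Alternatives were DESeq2 1.42.0, limma-voom (limma 3.58.1), other scalings and filters, a replicate block and leaving out each library. Exon overlap was read from the count tables' exons, and shared 50-base words from transcripts of a GRCm38 annotation.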

Additional observations from a re-analysis of the deposited data

How the results depend on the processing

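Under 16 other settings (2 other scalings, 2 other filters, DESeq2, limma-voom, non-robust estimation, a replicate block, a length offset, abundant genes left out and each library left out) 44 of 44 genes rose and 0 fell, and all 704 values of single genes kept their direction and side of the threshold. The median log2 fold change of the 44 genes was 1.47, and it moved by more than the spread between libraries with total counts (1.25) and with the 10 genes of shared sequence left out (1.68, 34 of 34 risen), an alternative chosen after seeing the data. Leaving out each library in turn gave medians of 1.45 to 1.52. The replicate block gave 44 risen genes and a median of 1.47. Same-numbered libraries did not deviate together (correlations of -0.114, 0.019 and -0.054), and no isograft library correlated best with the allograft library of its own number, so the numbers were not taken as pairs. Chi-square per degree of freedom between libraries of a group was 10.3 to 21.9, so no 2 libraries agreed within sampling noise. The lowest count of any of the 44 genes in a library was 267, and for genes at such counts counting error is a large part of the spread between libraries.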
